A study of Mus musculus with 12 samples.

Results

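The return to normal oxygen was followed in whole blood by comparing 4 mice after recovery (REC) with 4 mice at the end of chronic hypoxia (CH), 8 of the 12 arrays of the series, chosen by their titles. All mice were normal C57Bl/10 animals of 3 months, each array held the blood RNA of 1 mouse, and blood was drawn from the inferior vena cava under ketamine and xylazine. CH mice spent 2 weeks in a chamber in which inspired oxygen was stepped down from 21% and stood at 8% at harvest. REC mice went through the same 2 weeks of CH and then 2 weeks at 21% oxygen. The remaining 4 mice (NX) breathed 21% oxygen throughout. The question put to the 8 arrays is which blood transcripts differ once oxygen has been normal again for 2 weeks, and the NX values are given beside them as the level without hypoxia. REC mice were bled 2 weeks later in the protocol than CH mice, so the effect of re-oxygenation cannot be told apart from that of age and elapsed time. One label field calls the CH mice normoxic, whereas their titles, source names and treatment say hypoxia, and the latter was followed.

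Whole blood RNA comes from leucocytes, platelets and young red cells. Mature red cells have lost nucleus, mitochondria and ribosomes, but reticulocytes, the stage released from the bone marrow, still carry the transcripts of the last phase of erythropoiesis: globins, heme enzymes, membrane skeleton proteins, and the autophagy and ubiquitin machinery that clears organelles. Low oxygen raises erythropoietin and the output of reticulocytes, and on return to normal oxygen erythropoietin drops and red cell production is held back while the excess of red cells lasts. In a bulk blood sample, fewer cells of a type and less RNA per cell of that type cannot be told apart, and a share gained by one cell type is a share lost by the others.

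Signals were compared on a log2(signal + 16) scale with limma, fitted to all 12 arrays. A probe set, the group of oligonucleotides that measures a transcript, was called where its change reached 2-fold and its p, adjusted by Benjamini and Hochberg for all 45101 probe sets, lay under 0.05, and the verbs rose and fell are kept for called differences of REC from CH. Of the 45101 probe sets 6866 (15.2%) rose and 5688 (12.6%) fell. The 4 CH and 4 REC arrays did not overlap at 14594 probe sets (32.4%), among them 10656 of the 12554 that were called. With 1 probe set for each of 18194 genes, the brightest, 4242 genes (23.3%) rose and 2238 (12.3%) fell. These shares are given beside the counts in each gene group, although they depend on how bright a gene is, as described below. Called rises were moderate, with a median of 1.59 and a maximum of 4.39 on the log2 scale. Called falls reached further: 350 probe sets fell by 4 or more on the log2 scale against 4 that rose by as much, and 41 fell by 6 or more.

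**Figure D1:**
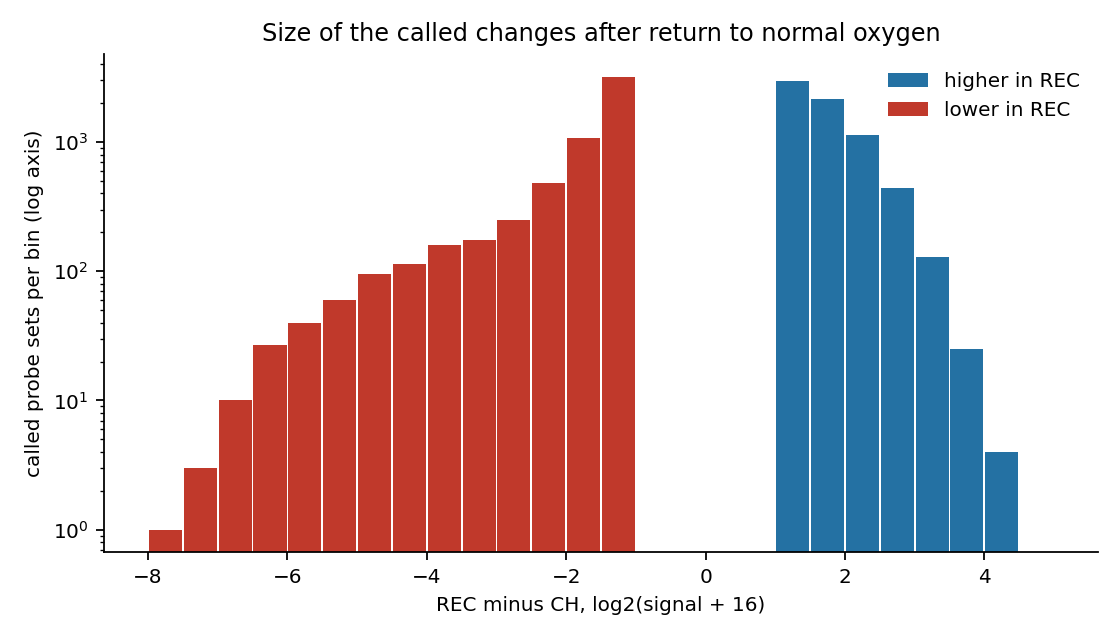
Number of called probe sets (log axis) in bins of 0.5 of the difference REC minus CH in log2(signal + 16), 4 arrays per group. Falls (red) extend beyond -7, whereas rises (blue) end below 4.5.

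The split of calls between rises and falls rests on how the arrays are put on one scale. As deposited, every array has a trimmed mean signal of 150.0, and 54.7% of the calls were rises. Falls were in the majority with a pseudocount of 1 (7259 rises and 7570 falls), with array weights (7050 and 7689), and without CH replicate 4. The share of rises was 61.4% when the arrays were quantile normalized. Centring arrays on their medians gave 73.6%, and scaling them by 18 hybridization control probe sets gave 97.5%. These 3 settings shifted the median probe set upwards, by 0.17, 0.31 and 1.37 on the log2 scale. Those controls, added in a fixed amount at hybridization, averaged 14.3 ± 0.254 on the log2 scale in CH, 11.9 ± 0.230 in REC and 12.7 ± 0.439 in NX (SD, n = 4 each), and CH and REC did not overlap (exact two-sided permutation test, p = 0.0286, the lowest p possible with 4 arrays a group). The 100 brightest probe sets took 21.0% ± 1.01 of the signal in CH and 9.13% ± 0.797 in REC (p = 0.0286 by the same exact test), with 12.2% ± 1.69 in NX. The ratio of 3 prime to 5 prime signal, a measure of RNA length, was 2.00 ± 0.0941 in CH and 1.61 ± 0.0923 in REC for Actb (p = 0.0286 by the same exact test), and 2.29 ± 0.368 against 1.77 ± 0.0783 for Gapdh (p = 0.0286). The part of RNA length in the changes described here was not tested. No gene that rose changed sign under the other scalings. Of the 2238 genes that fell 58 changed sign after quantile normalization, none with median centring and 1263 with hybridization control scaling, and the largest falls among those that changed sign were 2.30 and 2.42 on the log2 scale. Falls of up to that size are therefore relative to the trimmed mean, and larger ones did not change sign under the scalings tried, although many were then smaller. Under quantile normalization 707 of the genes that fell (31.6%) lost their call, with falls of up to 3.04, as did 900 (40.2%) with median centring, up to 2.17, and 1942 (86.8%) with hybridization control scaling, up to 3.41. Of the 4242 genes that rose 609 (14.4%) lost their call under quantile normalization, and none did under the other scalings.

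CH arrays varied more among themselves than REC arrays: the median standard deviation over probe sets was 0.59 in CH, 0.29 in REC and 0.33 in NX on the log2 scale, and 83.6% of probe sets had the larger standard deviation in CH. CH replicate 3 lay nearest to REC at many leucocyte genes. Without it 7529 probe sets rose and 6773 fell. CH replicate 4 had the lowest median signal, and without it the falls numbered 8828 and the rises 6619. REC replicate 1 kept the most red cell signal of its group, and 6740 probe sets rose and 5018 fell without it.

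Where a gene stood in blood that had never been hypoxic went with the direction of its change. Genes with a mean NX signal from 256 to below 1024 had a median difference of 1.12 between REC and CH, and 53.5% of these 2986 genes rose while 9.44% fell. At 1024 to below 4096 the median was 0.99 over 1040 genes. The 245 genes at 4096 or more ran the other way, with a median of -1.40, 54.7% falling and 14.7% rising. Below 64 few genes rose: 6.64% of the 5375 genes from 16 to below 64 and 0.771% of the 3891 genes below 16. The NX arrays take no part in the difference itself, but the genes are not independent of each other and all arrays are scaled to the same trimmed mean, so this is a description.

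Counts in 40 gene lists, 27 of pathways and complexes and 13 of marker genes, follow. Each list is described by how many of its measured members rose or fell and by its median difference, to be set beside 23.3% rising, 12.3% falling and a median of -0.07 over all genes. The lists share some genes and their members were chosen with earlier results of these data known, so no test was made on a list. Falls outnumbered rises in 12 of the 40 lists, in 12 after quantile normalization and in 9 with median centring. With hybridization control scaling they did so in 2, the red cell membrane list and the heme and iron list. The highest shares of falling members were in the red cell membrane list (84.6%), the globins and the cytosolic ribosomal proteins. Rises made up the highest shares among B cell markers, NK and cytotoxic genes, mitochondrial ribosomal proteins and T cell markers.

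**Figure D2:**
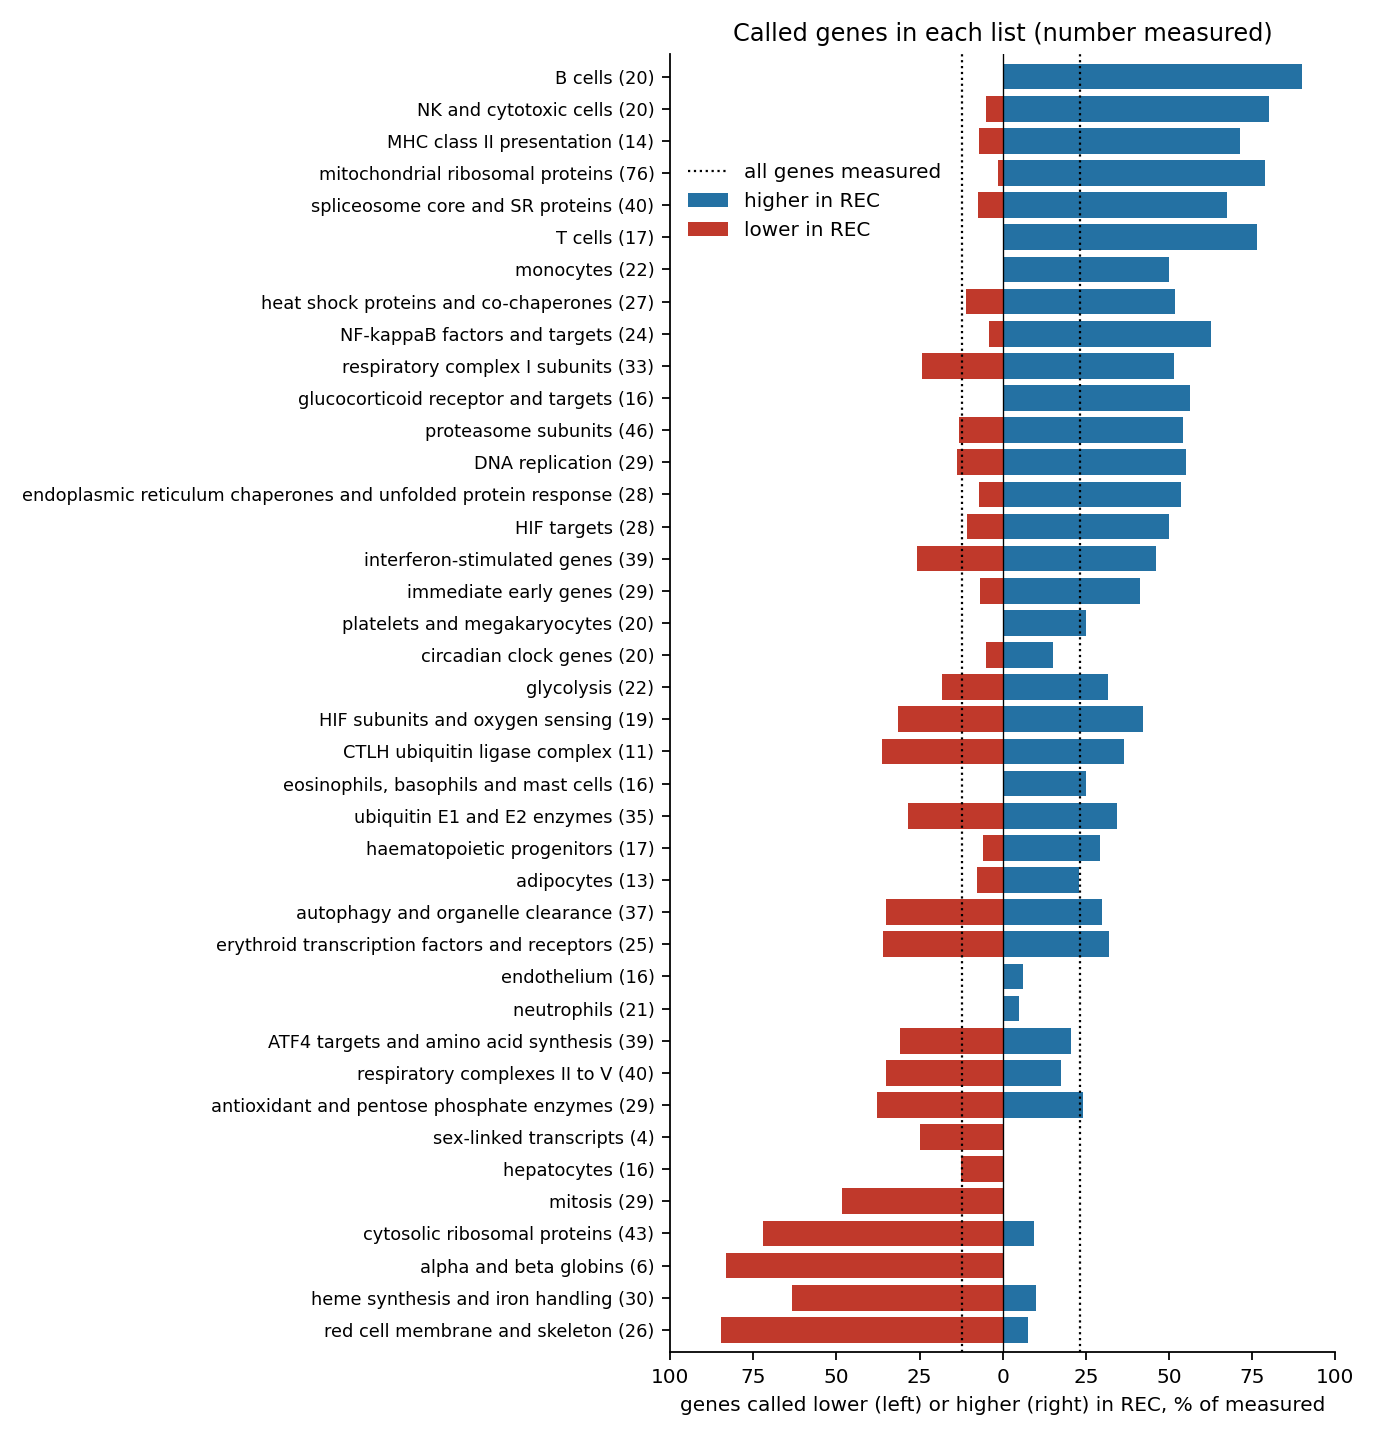
Share of the measured members of each gene list that was called lower (red, left) or higher (blue, right) in REC than in CH, ordered by the list's median difference, with the number measured in brackets. Dotted lines mark the shares over all 18194 genes, 12.3% lower and 23.3% higher: red cell lists lie at the bottom, lymphocyte lists at the top, and several lists hold both directions.

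Red cell genes fell most. In the list of red cell membrane and skeleton genes 22 of the 26 measured members fell and 2 rose, with a median difference of -2.60, and the median level of the list ran from 9.97 to 11.03 on the CH arrays and from 6.34 to 6.71 on the REC arrays (log2), with no overlap. Epb42 encodes protein 4.2, which ties band 3 to the membrane skeleton. Its signal (probe set 1417337_at) was 5815, 6205, 3598 and 5892 on the CH arrays and 106, 12.9, 23.6 and 38.9 on the REC arrays, in the order of the replicate numbers. All CH arrays lay far above all REC arrays, and REC replicate 1 was the highest of its group. The fall was 6.65 ± 0.45 on the log2 scale (SE, limma adjusted p = 9.45e-08). Kel, which encodes the Kell blood group protein, had 2169, 3158, 1775 and 4136 in CH and 63.4, 11.7, 11.9 and 26.2 in REC, a fall of 6.06 ± 0.37. Ank1, the ankyrin that links spectrin to band 3, fell by 6.28, from a mean signal of 2644 ± 1349 to 18.3 ± 16.8 (SD, n = 4 each). Dmtn, the actin-bundling protein dematin, fell by 5.94, and Sptb, beta-spectrin, by 5.60. Slc4a1, the chloride-bicarbonate exchanger band 3, was among the brightest of the list, and its mean went from 47496 to 1468, a fall of 5.26. The 2 members that rose were Add3, an adducin also made in other cells (1.77), and Piezo1, a mechanically gated cation channel (1.81). Against NX, 7 members were lower in REC and none was higher. Epb42 was lower by 2.44 (limma adjusted p = 0.00732), with a mean of 311 in NX and 45.3 in REC. With scaling on the hybridization controls 12 members fell and 6 rose, and the median of the list was -0.43.

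GATA1, the factor that switches on most late red cell genes, binds WGATAR sites. The promoters of Epb42 and Kel, picked as examples, were read for AGATAA and TGATAA on both strands. Ank1, which fell by more than Kel, is not shown. The windows span 250 bases before to 50 after the RefSeq start in GRCm38.p6, and motif letters are in capitals. The window of Epb42 (chr2:121036828-121037127, minus strand) holds AGATAA on the reverse strand, 226 bases before the start, and that of Kel (chr6:41704276-41704575, minus strand) holds AGATAA 56 bases and TGATAA 19 bases before the start.
Epb42: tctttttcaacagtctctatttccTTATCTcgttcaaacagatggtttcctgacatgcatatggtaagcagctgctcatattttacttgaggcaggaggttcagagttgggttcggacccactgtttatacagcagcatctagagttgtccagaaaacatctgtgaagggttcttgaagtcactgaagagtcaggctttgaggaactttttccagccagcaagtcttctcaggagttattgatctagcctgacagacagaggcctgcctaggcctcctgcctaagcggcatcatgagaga
Kel: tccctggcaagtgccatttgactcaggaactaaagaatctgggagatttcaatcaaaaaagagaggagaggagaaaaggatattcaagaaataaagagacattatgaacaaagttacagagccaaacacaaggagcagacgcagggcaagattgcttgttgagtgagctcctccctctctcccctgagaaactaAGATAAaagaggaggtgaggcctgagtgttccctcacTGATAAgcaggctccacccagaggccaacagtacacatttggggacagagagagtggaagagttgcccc
AGATAA occurred in 6 of the 21 genes of the membrane list with a window (28.6%) and in 12.7% of the 27025 genes with a window. Among other red cell lists it was in 6 of 21 erythroid factors, 3 of 24 heme and iron genes (12.5%) and 0 of 4 globins. Lists with few or no falls held it too, in 6 of 16 platelet genes (37.5%) and 3 of 9 MHC class II genes (33.3%). AGATAA was thus not particular to lists that fell. TGATAA occurred in 4 of the 21 membrane genes and in 10.4% of all genes with a window, and in 3 of 24 heme and iron genes and 4 of 4 globins. A match of letters is a description and shows no binding.

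Most heme and iron genes fell as well: 19 of the 30 measured members fell and 3 rose, with a median difference of -2.54. With hybridization control scaling 11 fell and 10 rose, and the median was -0.21. Slc25a37 encodes mitoferrin-1, which carries iron into erythroid mitochondria, and its signal was 34336, 40984, 35147 and 49774 in CH and 3154, 781, 965 and 2063 in REC. The groups were far apart, and the fall was 4.72 ± 0.38 (limma adjusted p = 4.6e-07). Alas2, which encodes the erythroid enzyme of the first step of heme synthesis, had 47318, 56139, 57496 and 75319 in CH and 11764, 3712, 4793 and 6927 in REC, a fall of 3.23 ± 0.34. Fech, which inserts iron to complete heme, fell by 4.07, Cpox by 4.12 and Urod, also enzymes of the pathway, by 3.68. Tfrc, the transferrin receptor that brings iron into the cell, fell by 4.38. Ncoa4, the receptor that delivers ferritin for degradation, fell by 6.86 at probe set 1450006_at and by 4.64 at its brightest probe set, so that its probe sets differed in size but not in direction. Blvrb fell by 4.42 and Abcg2, a porphyrin exporter, by 4.28. The 3 members that rose were Tmem14c, a mitochondrial porphyrinogen carrier (2.45), and Aco1 (1.69) and Ireb2 (1.39), the iron regulatory proteins that bind iron-responsive mRNA elements. In REC against NX 6 members were lower and 1 was higher.

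The adult globins Hbb-b2 and Hba-a2 were bright in all groups. Of the 12 globin genes listed 6 had a probe set naming a single gene, 5 of them fell and none rose, with a median difference of -2.10. Hbb-b2, an adult beta globin, fell by 2.96 ± 0.28, from 13035, 16361, 20456 and 33419 in CH to 2448, 2444, 2747 and 2346 in REC. Hba-a2, an adult alpha globin, fell by 2.25 ± 0.23, but changed sign to 0.18 when arrays were scaled on hybridization controls. The embryonic globins Hbb-y, Hbb-bh1 and Hba-x, far dimmer, fell by 2.92, 1.95 and 1.32. Globin copies are near-identical, and a probe set may read more than the gene it names. No globin was called between REC and NX, or between REC and CH with hybridization control scaling.

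Red cell regulators were split. In the list of erythroid transcription factors and receptors 9 of the 25 measured members fell and 8 rose, and the median was -0.15, or 0.17 with median centring and 1.75 with hybridization control scaling. E2f2, a cell cycle factor of terminal erythroid divisions, fell by 6.12 ± 0.35: its signal was 22797, 32413, 32403 and 49718 in CH and 884, 315, 319 and 502 in REC. Trim10, a ubiquitin ligase of late erythroblasts, fell by 5.76 and Bcl2l1, the survival protein BCL-XL, by 5.07. Klf1, an activator of adult beta globin, fell by 3.80, Sox6 by 3.89 and Gata1 by 2.10. The members that rose included Stat5a (2.00) and Stat5b (1.47), which relay erythropoietin and many other cytokine signals, Bcl11a (1.84), a fetal globin repressor that B cells also make, and Gata2 (1.29) and Myb (1.27), factors of progenitors. Gata2 and Myb lost their calls under quantile normalization, where 4 list members rose. Epor, the erythropoietin receptor, was dim in both groups, with 34.7 in CH and 22.4 in REC, and was not called.

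Among the 15 largest falls of single genes 8 were in no list. Spire1, an actin nucleator, had 4249, 6636, 5196 and 7907 in CH and 60.1, 5.46, 35.1 and 22.2 in REC, a fall of 7.11 ± 0.38 (limma adjusted p = 1.91e-08), and its probe sets ranged from -7.11 to -0.34. Tmcc2 fell by 6.90, from 20193 ± 7005 to 184 ± 149 (SD, n = 4 each). Tspan33, a tetraspanin of erythroid progenitors, had 3212, 3730.2, 1836 and 4650.2 in CH and 65.3, 2.02, 3.98 and 5.26 in REC, a fall of 6.83. REC replicate 1 stood apart from the rest of its group there. Tspo2, an erythroid member of the translocator protein family, went from 6745 ± 1857 to 90.2 ± 97.6, a fall of 6.31. Rundc3a fell by 6.57, Gda, guanine deaminase of purine breakdown, by 6.43, Gstm5, a glutathione transferase, by 6.33, and Slc16a10, a carrier of aromatic amino acids, by 6.59. Each of these 8 genes was also lower in REC than in NX, from -2.07 for Rundc3a to -3.90 for Tmcc2 on the log2 scale, and REC replicate 1 had the highest REC signal at 13 of the 15 largest falls.

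**Figure D3:**
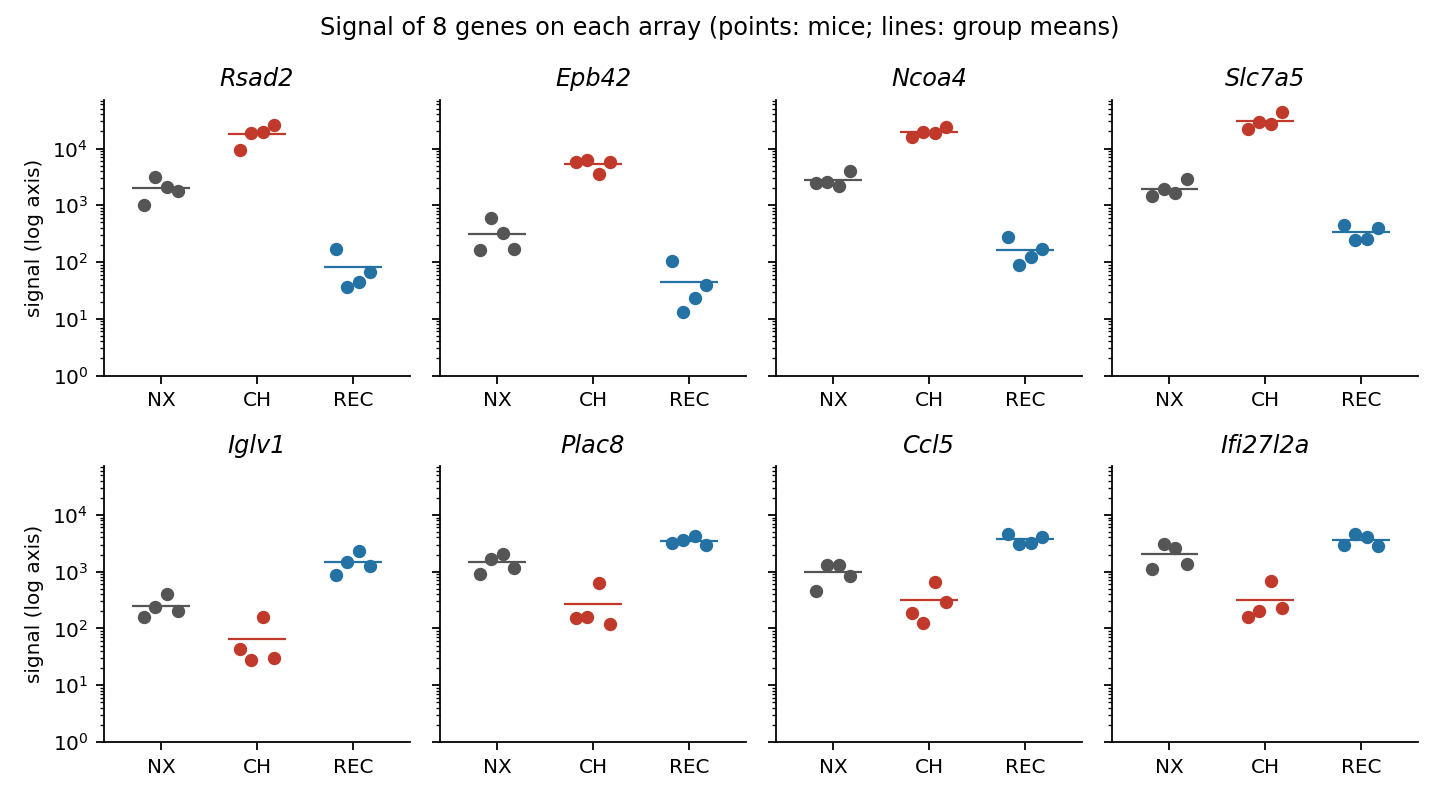
Signal (log axis) of 8 genes on each of the 12 arrays, with points for mice and lines for group means. In the upper row Rsad2, Epb42, Ncoa4 and Slc7a5 are highest in CH and lowest in REC, and in the lower row Iglv1, Plac8, Ccl5 and Ifi27l2a are lowest in CH, where replicate 3 is the highest of its group.

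A set of amino acid genes fell as far as the red cell genes. ATF4, a transcription factor made when translation initiation is slowed by amino acid or heme shortage, turns on amino acid transport and synthesis. In its list 12 of the 39 measured members fell and 8 rose, with a median of -0.31 that was 0.0054 with median centring and 1.53 with hybridization control scaling. Atf5, a related factor induced by the same pathway, had 10382, 8153, 7762 and 20234 in CH and 107, 75.7, 98.8 and 121 in REC. NX lay at 44.6, 73.5, 65.2 and 69.2, so CH alone was high. The fall was 6.54 ± 0.30 (limma adjusted p = 9.38e-09), and REC differed from NX by 0.56 (adjusted p = 0.366 by limma). Mthfd2, a mitochondrial enzyme of one-carbon metabolism, had 4574, 8537, 9158 and 19346 in CH, 63.1, 74.7, 85.8 and 81.3 in REC and 136, 187, 165 and 141 in NX at probe set 1419254_at, a fall of 6.64 ± 0.34. Slc7a5, the light chain of the large neutral amino acid transporter, fell by 6.45 ± 0.30, from 22250.0, 29858, 27244 and 43482 to 450.1, 248, 250.0 and 401, and its partner chain Slc3a2 by 3.56. Unlike Atf5, Slc7a5 was also lower in REC than in NX, by 2.49 (limma adjusted p = 0.000725). Asns, asparagine synthetase, had 4880.0, 4955, 1712 and 12809 in CH and 48.9, 61.8, 54.9 and 54.8 in REC, a fall of 6.09, with an NX mean of 78.7. Slc6a9, a glycine transporter that feeds heme synthesis, fell by 5.92. Other list members went up: Wars (1.76) and Iars (1.58), which load tryptophan and isoleucine onto tRNA, and Phgdh (1.71), the first enzyme of serine synthesis. Ddit3, the factor CHOP, and Chac1, which breaks down glutathione, were not called, with differences of 0.21 and -0.03.

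Asns carries a well-studied ATF4 response element, and its promoter is shown for the composite C/EBP-ATF core TGATGNAA, read on both strands. In the window of Asns (chr6:7693160-7693459, minus strand, GRCm38.p6, RefSeq) the motif, in capitals, lies on the forward strand 23 bases before the start.
Asns: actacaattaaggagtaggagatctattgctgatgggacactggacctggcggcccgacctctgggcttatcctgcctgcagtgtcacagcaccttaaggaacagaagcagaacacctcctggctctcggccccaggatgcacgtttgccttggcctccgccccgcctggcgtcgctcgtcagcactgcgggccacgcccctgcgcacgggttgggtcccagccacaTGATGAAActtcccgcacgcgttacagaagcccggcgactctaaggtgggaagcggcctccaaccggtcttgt
The motif occurred in 11 of the 33 genes of the list with a window (33.3%) and in 4.51% of all 27025 genes with one. A share above that of all genes is in part given by choosing ATF4 targets. Among list members with a window the motif was in 3 of 11 that fell (27.3%) and in 2 of 7 that rose (28.6%). It thus did not separate the directions.

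The ubiquitin system was divided between genes that fell steeply and genes that rose. Ubiquitin is passed from an E1 to an E2 enzyme and by a ligase to the protein to be degraded by the proteasome. Among E1 and E2 enzymes 10 of the 35 measured members fell and 12 rose, with a median of 0.21. Ube2c, which extends ubiquitin chains in mitosis, fell by 6.30 ± 0.49. Ube2o, which drives the removal of ribosomes in reticulocytes, had 28853, 37590.0, 35892 and 54773 in CH and 1645, 423, 414 and 1103 in REC, a fall of 5.63 ± 0.41 (limma adjusted p = 1.74e-07). Ube2l6, the E2 that also conjugates ISG15, fell by 5.11, Ube2h by 4.60 and Ube2r2 by 4.22. In the other direction Ube2e1 rose by 3.25, from a mean of 107 to 1110.0, and Sae1, a subunit of the SUMO-activating enzyme, by 2.84. The CTLH complex is the ligase that works with Ube2h in red cell maturation. Of its 11 genes 4 fell and 4 rose: the falls were Ranbp10 (-5.51), Rmnd5a (-5.10), Wdr26 (-4.84) and Ypel5 (-3.34), and the rises were Rmnd5b (1.87), Maea (1.66), Ranbp9 (1.52) and Gid8 (1.03). The paralogs Rmnd5a and Rmnd5b, and Ranbp10 and Ranbp9, thus moved in opposite directions. Maea and Gid8 each have other probe sets called the other way. The median of the complex, 0.27, was -0.13 after quantile normalization.

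Most proteasome genes rose, and a few fell steeply. Among 46 measured genes 25 rose and 6 fell, with a median of 1.07 and a range of the list's median level of 8.88 to 9.19 on CH arrays and 10.02 to 10.35 on REC arrays (log2). The largest rises were those of Psmb8 (3.49 ± 0.56), Psmb10 (3.37 ± 0.38) and Psmb9 (2.90), the catalytic subunits of the immunoproteasome, the form made in lymphoid cells and after interferon. Psmb8 had 36.8, 103, 678 and 96.7 in CH and 1618, 1781, 1829 and 1443 in REC, with all REC arrays above all CH arrays. The constitutive counterparts Psmb5 and Psmb6 rose by 1.56 and 1.42. The steepest falls were Psmf1 (-4.96), an inhibitor of the core, Psme3 (-4.47) and Psme4 (-3.83), both activators that cap it, and Psmd4 (-3.14), a ubiquitin receptor. Psme3 had 26122, 31661, 30553 and 39330.0 in CH and 3157, 736, 1014 and 1666 in REC. Relative to NX, 11 proteasome genes were higher in REC and 2 were lower, where 2.5% of all genes were higher and 1.79% lower.

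In autophagy and organelle clearance 13 of the 37 measured members fell and 11 rose, with a median of 0.01 that was -0.37 after quantile normalization. All members that fell had CH means of 529 or more, although choosing falls favours high CH values. Map1lc3b, an ATG8 protein that coats the autophagosome, had 42316, 48071, 46004 and 64884 in CH and 6905, 3644, 3876 and 4477 in REC, a fall of 3.44 ± 0.26. Its relative Gabarapl2 fell by 4.12, the ATG8 protease Atg4a by 5.42, Wipi1 by 4.64, and the receptor Tax1bp1 by 4.21. Pink1, the kinase that marks damaged mitochondria, fell by 2.96. Among the rises were Alox15, a lipoxygenase of eosinophils and reticulocytes (3.23), Atg101 (2.38), Uvrag (2.09), Fundc1, a mitophagy receptor (1.91), and Atg7 (1.68). Atg4a fell while Atg4c rose (1.63), again within a family. Bnip3, another mitophagy receptor and a HIF target, rose by 1.01.

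Genes of mitosis and of DNA replication parted. In the mitosis list 14 of the 29 measured members fell and 0 rose, with a median of -1.07 and 0.76 with hybridization control scaling, and in the replication list 16 of the 29 measured members rose and 4 fell, with a median of 1.02. Nusap1, a spindle protein, had 8032, 12942, 7789.7 and 14382 in CH and 231, 71.6, 72.8 and 235 in REC, a fall of 6.13 ± 0.41 (limma adjusted p = 7.57e-08). Mki67, the proliferation antigen, fell by 5.64, Ccna2, cyclin A, by 5.65, and Esco2, which establishes sister chromatid cohesion, by 5.97. The mitotic kinases Plk1, Cdk1 and Aurkb were not called, with differences of -0.60, -0.27 and 0.36 and mean signals of at most 73.6. On the replication side Cdt1, the licensing factor, rose by 2.69, Mcm5, a helicase subunit, by 2.10, Pold1, the catalytic subunit of polymerase delta, by 2.15, and Pcna, the sliding clamp, by 1.77. Pcna had 313, 342, 700.2 and 443 in CH and 1517, 1548, 1734 and 1219 in REC. Rfc2, a clamp loader subunit, was among the 15 largest rises (3.70 at probe set 1457669_x_at, where CH replicate 3 lay at 180.9 and the other CH arrays at 4.07 to 13.6). The 4 members that fell were Rrm2, a ribonucleotide reductase subunit (-1.98), Cdc45 (-1.26), Mcm10 (-1.25) and Cdc6 (-1.09). Rrm2 was 0.40 with hybridization control scaling, and that count was 2 without CH replicate 2, REC replicate 2 or REC replicate 4.

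Mitochondrial and cytosolic ribosomal proteins moved in opposite directions on the scale as deposited. Mitochondrial ribosomal proteins, which translate the few proteins encoded by mitochondrial DNA, rose almost throughout: 60 of the 76 measured members rose and 1 fell, with a median of 1.81. Their median level ran from 6.79 to 7.72 on the CH arrays and from 8.64 to 9.28 on the REC arrays, with no overlap. Mrpl49 rose by 3.17 ± 0.31, from 49.4, 7.15, 30.5 and 17.6 to 324, 402, 449 and 221. Mrpl43 rose by 3.03 and Mrps16 by 3.02. The member that fell was Mrpl32, by 3.33, with 8271, 9526, 6239 and 14251 in CH and 713, 836, 1036 and 1048 in REC. Cytosolic ribosomal proteins, which build the ribosome of the cytoplasm and are among the brightest transcripts on the array, did the reverse: 31 of the 43 measured members fell and 4 rose, with a median of -1.71. Rplp0, a protein of the ribosomal stalk, had 29961, 37133, 45153 and 54147 in CH and 8191, 6752, 6911 and 6248 in REC, a fall of 2.54 ± 0.24. The direction of this list hangs on the scale, since its median was 0.35 after quantile normalization and 0.68 with hybridization control scaling, and no member was called lower under either, Rplp0 included. Against NX 1 cytosolic ribosomal gene was higher in REC and none was lower, whereas 31 mitochondrial ribosomal genes were higher.

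Respiratory chain genes went both ways, and complexes II to V were counted together. For complex I, which takes electrons from NADH, 17 of the 33 measured members rose and 8 fell, with a median of 1.11. For complexes II to V 7 of the 40 measured members rose and 14 fell, and the median was -0.39, or 0.27 after quantile normalization, where 6 fell, and 2.02 with hybridization control scaling, where 1 fell. Ndufb5 of complex I rose by 3.03 ± 0.33, with 159, 261, 543 and 211 in CH and 2051, 2625, 2891 and 1712 in REC. Ndufb3 rose by 2.49 and Ndufa1 fell by 3.22, from a mean of 17387 to 1742. In ATP synthase Atp5b, the catalytic beta subunit, fell by 3.64, from 24428, 29430.0, 24388 and 42051 to 2635, 2154, 2569.5 and 2024, while the genes of the c subunit, Atp5g1, Atp5g2 and Atp5g3, rose by 2.20, 2.36 and 2.57. Of complex II Sdhb (1.19) and Sdhc (2.35) rose. Every falling member of complexes II to V had a CH mean of 1431 or more, but choosing falls favours high CH values. The median level of that whole list was 11.23 to 12.19 on the CH arrays (log2). Measured against NX, REC was higher at 22 complex I genes and 11 genes of complexes II to V, and lower at none.

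Glycolysis and antioxidant genes moved in both directions. Of the glycolysis genes 7 of 22 measured members rose and 4 fell, with a median of 0.46. Bpgm, which makes the 2,3-bisphosphoglycerate that lowers the oxygen affinity of hemoglobin, had 43341, 55056, 54434 and 69295 in CH and 9592, 3527, 4747 and 6482 in REC, a fall of 3.27 ± 0.31. Pklr, the pyruvate kinase of red cells and liver, fell by 1.32, and Pkm, the form of most other tissues, rose by 1.08. Tpi1, triosephosphate isomerase, rose by 2.89, Ldha, lactate dehydrogenase A, by 1.74, and Slc2a1, the glucose transporter GLUT1, by 1.55. In the antioxidant list 11 of the 29 measured members fell and 7 rose, with a median of -0.63 that was 0.034 after quantile normalization and 1.69 with hybridization control scaling. Prdx2, the main peroxiredoxin of red cells, fell by 4.18, from 40372, 49076, 43759 and 63326 to 4971, 1899, 2228 and 2330.1. Txnrd2 fell by 5.82, Nqo1 by 4.53, Gclm, of glutathione synthesis, by 4.52, and Cat, catalase, was also called lower. Keap1, which holds the antioxidant regulator NRF2 in check, rose by 2.55, and Nfe2l2, which encodes NRF2, by 1.71.

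**Figure D4:**
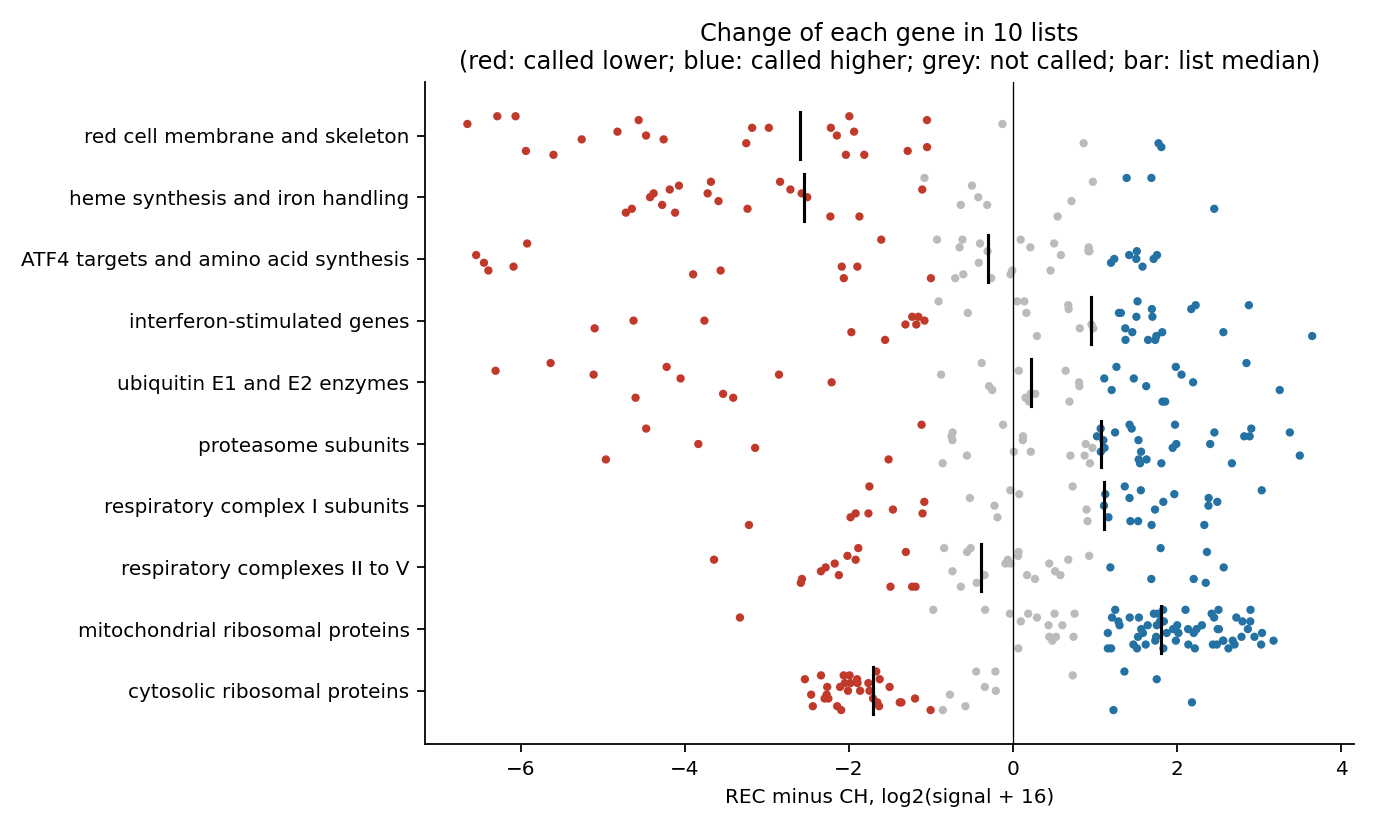
Difference REC minus CH in log2(signal + 16) of every measured member of 10 lists, with red for called lower, blue for called higher, grey for not called and a bar at the list median. Heme and membrane genes spread to the left, mitochondrial ribosomal proteins cluster on the right and cytosolic ones on the left, and the ubiquitin, ATF4 and interferon lists hold members on both sides.

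Targets of the hypoxia-inducible factors (HIF) were more often higher than lower after re-oxygenation. HIF is stabilised when oxygen is short and raises glycolysis, glucose uptake and angiogenic genes. Among 28 listed targets measured 14 rose and 3 fell, with a median of 1.00. Over all genes with an NX signal from 64 to below 256, 36.6% rose, with a median of 0.65. From 256 to below 1024 it was 53.5%, with a median of 1.12. The HIF targets lay between these and so did not stand out from genes of similar level. The range of the list's median level was 6.73 to 7.15 on CH arrays, 7.81 to 8.07 on REC arrays and 7.50 to 7.99 on NX arrays (log2), so CH was lowest and REC and NX overlapped. Ddit4, an inhibitor of mTORC1 that glucocorticoids also induce, had 279, 293, 794 and 323 in CH and 3781, 1906, 1391 and 3636 in REC, a rise of 2.64 ± 0.44 (limma adjusted p = 0.000349). Bhlhe40, a repressor of clock genes, rose by 2.58, Higd1a, a mitochondrial protein, by 2.20, and Egln1, the main oxygen-sensing prolyl hydroxylase, by 2.10. The 3 that fell were Mxi1, an antagonist of MYC (-2.75, from a mean of 25449.8 to 3774), Egln3, another prolyl hydroxylase (-1.19), and Car12, a carbonic anhydrase (-1.12). The call of Mxi1 was lost under quantile normalization (-0.96) and hybridization control scaling (-0.32). Egln3 and Car12 were dim, with CH means of 81.2 and 36.7, and 1 of the 3 falls remained when REC replicate 4 was left out. Vegfa, the vascular growth factor, and Car9, carbonic anhydrase 9, lay near the bottom of the range with CH means of 37.9 and 15.9 and were not called. Of the sensing machinery 8 of 19 measured members rose and 6 fell. Hif1a rose by 1.94 and Vhl, which marks HIF for degradation, by 2.36, although Hif1a has another probe set called lower. Hif3a fell by 3.83 and Siah1a, a ligase for the prolyl hydroxylases, by 3.85. Elob, elongin B, which works with VHL, fell by 3.22.

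More splicing factors and chaperones rose than fell. In the spliceosome list 27 of the 40 measured members rose and 3 fell, with a median of 1.64. Snrpb, a core protein of the small nuclear ribonucleoproteins, had 77.4, 57.8, 433 and 138 in CH and 2021, 2171, 2299 and 1787 in REC, a rise of 3.81 ± 0.43, and Snrpe rose by 3.04 and Prpf19 by 2.93. The falls were Srsf11 (-1.94), Srsf6 (-1.47) and Lsm6 (-1.37), and Srsf6 and Lsm6 have probe sets called the other way. Among heat shock proteins and co-chaperones 14 of 27 measured members rose and 3 fell, with a median of 1.37. Hspe1, the mitochondrial chaperonin partner, rose by 3.00 and Stip1, which couples HSP70 to HSP90, by 2.94, while Dnajb6 fell by 3.20. Hsp90aa1 was not called, at 0.08. In the list of endoplasmic reticulum chaperones 15 of the 28 measured members rose and 2 fell. Derl2, of protein retrotranslocation, rose by 2.82, Herpud1 by 2.41 and Hspa5, the chaperone BiP, by 1.02. Calr, calreticulin, fell by 1.48.

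Most lymphocyte markers rose. Of 20 B cell markers 18 rose and none fell, with a median of 2.44, and of 17 T cell markers 13 rose and none fell, with a median of 1.61. The median level of the B cell list was 7.54 to 9.57 in CH, 10.70 to 11.11 in REC and at the median of the NX arrays 10.61 (log2), and CH replicate 3 was the highest of CH. Cd79a, a signalling chain of the B cell receptor, had 404, 428, 1966 and 934 in CH and 4967, 5229.7, 5672 and 4704 in REC, a rise of 2.74 ± 0.40 (limma adjusted p = 9.84e-05). Cd72, an inhibitory B cell receptor, rose by 3.28, Spib, a B cell transcription factor, by 3.03, and Ms4a1, CD20, by 2.53. Iglv1, a lambda light chain variable segment, was the largest rise of all, with 43.3, 28.2, 159 and 30.4 in CH and 891, 1504, 2342 and 1262 in REC: 4.39 ± 0.43, or 21.0-fold (limma adjusted p = 3.4e-06). It was also higher in REC than in NX, by 2.50 (adjusted p = 0.00498 by limma). Pax5, the B lineage factor, was dim, with a REC mean of 13.4, and was not called. Of the T cell genes Cd3d, a chain of the T cell receptor complex, had 298, 369.9, 1337 and 398 in CH and 3533, 3574, 3665 and 3077 in REC, a rise of 2.77 ± 0.38. Cd3e rose by 2.48, Ccr7, the homing receptor of naive cells, by 2.34, Cd8a by 1.73 and Cd4 by 1.61. Between REC and NX 0 T cell markers and 1 B cell marker were called higher, and none was called lower.

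Most cytotoxic genes rose, and several also stood above NX. In the list of NK and cytotoxic genes 16 of the 20 measured members rose and 1 fell, with a median of 2.23, and 8 were higher in REC than in NX, the largest share of any marker list. Ccl5, a chemokine of cytotoxic lymphocytes, had 190.0, 123, 654 and 286 in CH, 4682, 3039.9, 3238 and 4112 in REC and 449, 1321, 1321 and 855 in NX. REC arrays lay above all others, and the rise from CH was 3.76 ± 0.44 (limma adjusted p = 1.69e-05) and that from NX 2.01 (adjusted p = 0.0181 by limma). Gzma, granzyme A, had 455, 266, 1115 and 439 in CH and 7412, 4588, 5592 and 5903 in REC, a rise of 3.50. Nkg7 rose by 3.17, Klrc1, an NKG2 receptor, by 3.10, Gzmb by 3.00 and Tbx21, the factor T-bet, by 2.57. Prf1, perforin, fell by 1.84 at its brightest probe set, and another of its probe sets was called higher, so its direction is not settled. The level of the list varied among REC mice, with a range of 7.50 to 8.85, against 6.21 to 6.89 in CH.

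Myeloid genes differed by lineage. Of 21 neutrophil markers 1 rose and none fell, with a median of -0.30 that was 0.012 with median centring and 1.97 with hybridization control scaling. S100a8, a calcium-binding protein abundant in neutrophils, had 14917, 3671, 9730.0 and 4690.1 in CH and 9152, 7099, 7032 and 6948 in REC, and its partner S100a9 35428, 10559, 25125 and 16054 and 15176, 11436, 10409 and 11790.0. The groups overlapped at both, and neither gene was called. Of 22 monocyte markers 11 rose and none fell, with a median of 1.39. Those that rose were led by Irf8, a factor of monocytes, dendritic cells and B cells (3.08), Adgre4 (2.67) and Csf1r, the macrophage growth factor receptor (2.65), the latter pair high in non-classical monocytes. Csf1r had 233, 169, 844 and 145 in CH and 2111, 1876, 1188 and 2052 in REC. Ccr2, the receptor of classical monocytes, and Lyz2, lysozyme, were not called, at 0.56 and 0.71. For MHC class II presentation 10 of the 14 measured members rose and 1 fell, with H2-DMa, a peptide exchange factor, at 3.55 and H2-Ab1 at 2.44. Of 20 platelet genes 5 rose, near the share over all genes, and none fell, with 10 rises after quantile normalization and 20 with hybridization control scaling. Pf4, platelet factor 4, with CH and REC means of 15384 and 8955, was not called. Eosinophil, basophil and mast cell genes had 4 rises of 16, with Siglecf of eosinophils at 1.95. Of these rises Il4 lost its call when any of 5 single arrays was left out, and Gata2 under quantile normalization. Progenitor genes had 5 rises and 1 fall of 17, but 1 rise after quantile normalization. In both lists the share of rises lay near that over all genes. Kit and Cd34, markers of stem and progenitor cells, had REC means of 7.42 and 15.1.

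**Figure D5:**
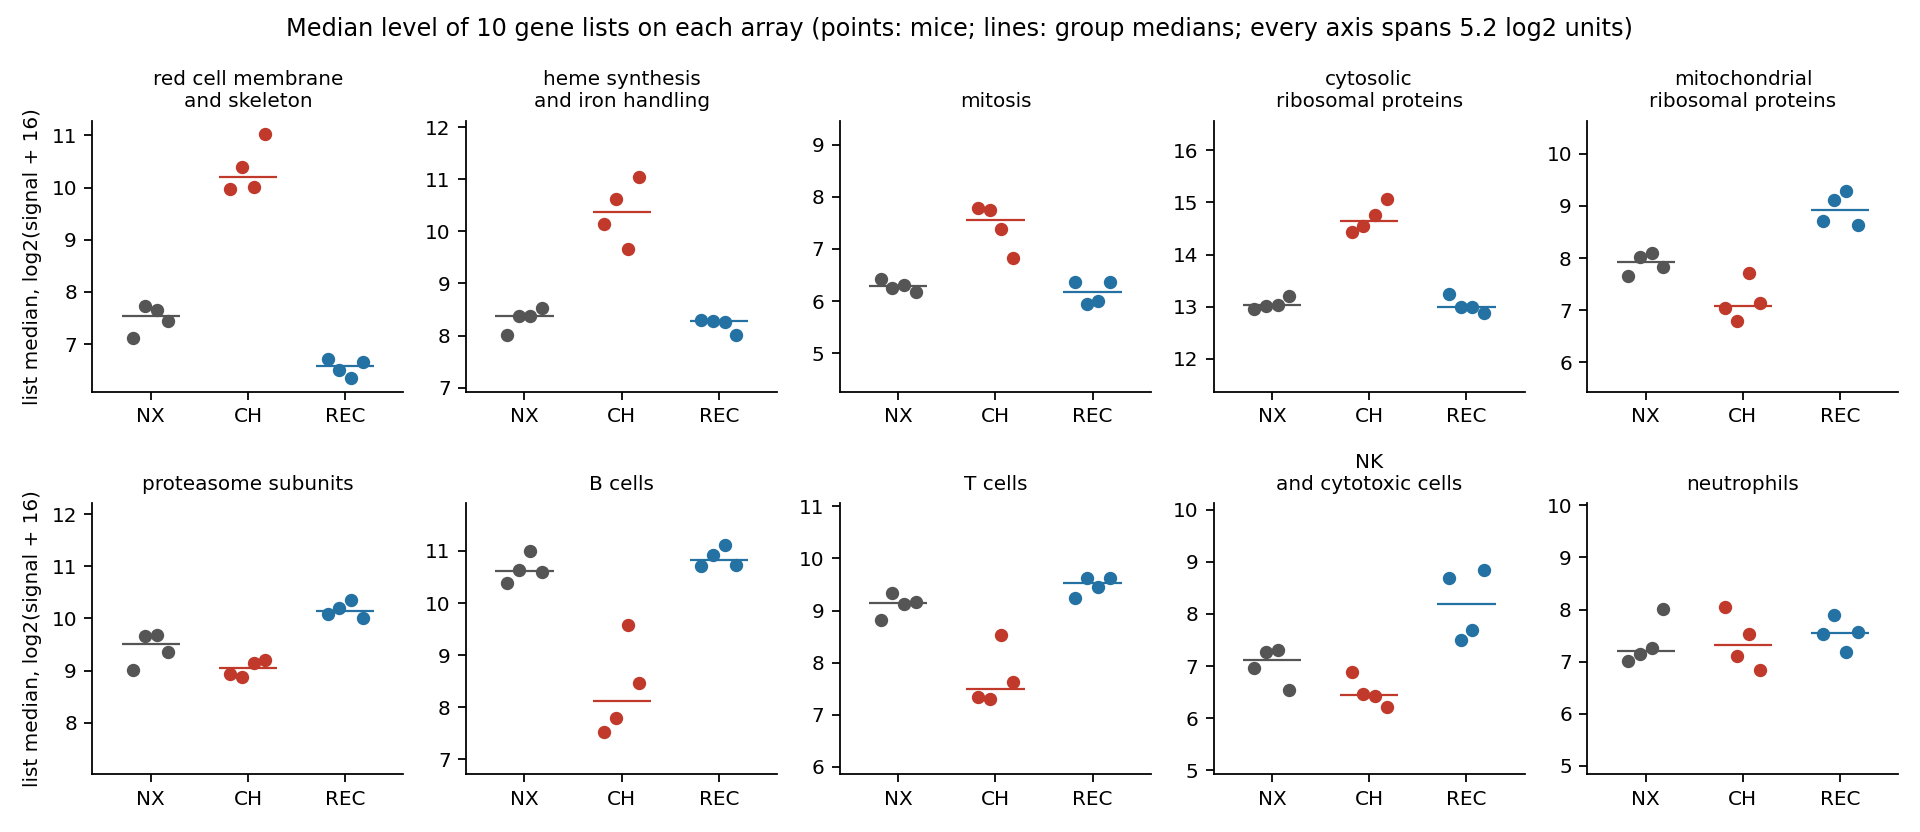
Median log2(signal + 16) over the measured members of 10 lists on each of the 12 arrays, with points for mice and lines for group medians, each panel spanning the same number of log2 units. The red cell lists, mitosis and cytosolic ribosomal proteins are highest in CH, the B and T cell lists and mitochondrial ribosomal proteins are lowest in CH, NK and cytotoxic genes and mitochondrial ribosomal proteins are highest in REC, and neutrophil genes overlap between all groups.

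The red cell and lymphocyte lists thus moved in opposite directions on the same arrays. With hybridization control scaling every measured B and T cell marker was called higher in REC, and 12 of the 26 membrane genes were still called lower. Under that scaling 97.5% of all calls were rises and all 20 platelet genes were called higher, so the rises there are not particular to lymphocytes. Other genes among the 15 largest rises were Plac8, made in lymphoid and myeloid cells, with 152, 157, 641 and 118 in CH and 3192, 3543, 4314 and 2897 in REC (3.94 ± 0.43), AW112010, an immune transcript (3.82), Emp3, a membrane protein (3.61), BC028528 (3.70), Tmem158 (3.89), Chrac1, a subunit of a chromatin remodeller (3.77), Jakmip1 (3.75), Cnn3, calponin 3 (3.67), and 4930486L24Rik (4.17). Mrpl11 rose by 3.73 at probe set 1437839_x_at and by 2.78 at its brightest one. CH replicate 3 had the highest CH signal at 14 of the 15 largest rises.

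Interferon-stimulated genes moved in both directions. Interferons switch on these genes through response elements in their promoters, and many of the products limit viruses. Of 39 measured 18 rose and 10 fell, with a median of 0.96. Rises and falls numbered 21 and 5 with median centring and 32 and 3 with hybridization control scaling. The falling genes ranged in CH mean down to 149.8. Rsad2, the antiviral enzyme viperin, had 9324, 18676, 19312 and 25727 in CH and 172, 37.0, 44.3 and 67.8 in REC at probe set 1421008_at, with NX at 1009, 3093, 2071 and 1765. It was the largest fall of any gene, 7.67 ± 0.44 or 204-fold (limma adjusted p = 2.68e-08), and was 4.62 at its brightest probe set. Oas3, a sensor of double-stranded RNA, fell by 5.10, from 4629, 9136, 7675 and 10932 to 431, 209, 149.9 and 140.1, and Isg20, an exonuclease, by 3.76. Ifi27l2a rose by 3.65, with 162, 200.3, 679 and 231 in CH and 2984, 4653, 4034 and 2838 in REC. Gbp3, a guanylate-binding protein, rose by 2.87, Zbp1, a nucleic acid sensor, by 2.56, Irf9 by 2.23 and Oas1a, a paralog of Oas3, by 1.73. Irf7, which amplifies interferon production, fell by 1.97, while Mx1 and Usp18, common readouts of an interferon response, were not called, at 0.68 and 0.14.

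Promoters of a pair of genes that fell, Rsad2 and Oas3, and of Oas1a, which rose, are shown for the core of the interferon-stimulated response element, which is GAAA followed after 2 bases by another GAAA, read on both strands and set in capitals (RefSeq windows, GRCm38.p6, 250 bases before to 50 after the start). In Rsad2 (chr12:26456403-26456702, minus strand) the match is on the reverse strand 120 bases before the start, in Oas3 (chr5:120777610-120777909, minus strand) on the forward strand at 75 bases, and in Oas1a (chr5:120907476-120907775, minus strand) there are 2 overlapping matches at 20 and 14 bases.
Rsad2: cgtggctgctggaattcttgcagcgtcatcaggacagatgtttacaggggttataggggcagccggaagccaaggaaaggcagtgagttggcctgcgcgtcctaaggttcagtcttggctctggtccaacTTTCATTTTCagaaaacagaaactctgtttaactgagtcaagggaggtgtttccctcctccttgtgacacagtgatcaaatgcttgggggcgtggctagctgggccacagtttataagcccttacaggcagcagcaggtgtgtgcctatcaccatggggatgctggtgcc
Oas3: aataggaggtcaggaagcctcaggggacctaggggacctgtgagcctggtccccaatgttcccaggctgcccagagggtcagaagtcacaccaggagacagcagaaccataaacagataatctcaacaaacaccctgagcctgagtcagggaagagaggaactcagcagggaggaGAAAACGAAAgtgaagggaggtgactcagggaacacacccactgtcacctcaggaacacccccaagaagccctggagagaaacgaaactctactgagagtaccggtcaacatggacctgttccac
Oas1a: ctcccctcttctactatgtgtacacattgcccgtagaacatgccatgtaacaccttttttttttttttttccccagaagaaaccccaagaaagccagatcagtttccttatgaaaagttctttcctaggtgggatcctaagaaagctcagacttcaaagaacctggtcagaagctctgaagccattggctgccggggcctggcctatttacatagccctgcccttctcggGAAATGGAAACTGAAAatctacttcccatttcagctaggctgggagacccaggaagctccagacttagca
Among list members with a window the motif was present in 5 of 10 that fell and in 6 of 14 that rose, so both directions held it. Of all genes with a window 3.99% held it, and a higher share is in part given by choosing interferon-stimulated genes.

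Among immediate early genes, which stimulated cells switch on within minutes, 12 of the 29 measured members rose and 2 fell, with a median of 0.77. Ier5 rose by 2.57, Nr4a1, an orphan nuclear receptor, by 2.25 and Egr1 by 2.16. Fos was not called (-0.83) and Jund, the bright AP-1 member, fell by 2.65, a call lost under quantile normalization and hybridization control scaling. In the NF-kappaB list 15 of the 24 measured members rose and 1 fell, with a median of 1.16. Cd83, an activation marker, had 142, 40.7, 245 and 221 in CH and 1362, 1727, 2056 and 1547 in REC, a rise of 3.45 ± 0.39. Birc2, an inhibitor of apoptosis, rose by 3.15, and the feedback inhibitors Nfkbie and Nfkbia by 2.87 and 2.36. The cytokines Tnf and Il1b were not called, at -0.44 and -0.39, and Ikbkg, which encodes the kinase subunit NEMO, fell by 3.90. Of 16 glucocorticoid-responsive genes 9 rose and none fell. Fkbp5 rose by 1.65 and Tsc22d3, the leucine zipper protein GILZ, by 1.01, with means of 477 in CH, 975 in REC and 2026 in NX. Of the clock genes 3 of the 20 measured members rose and 1 fell, with rises of Bhlhe40, Cry1 (1.74) and Arntl (1.29), and a fall of Csnk1d (-2.01), which has probe sets called in both directions. Per2 and Per3, core period genes, were not called, at 0.03 and 0.03. The rises numbered 5 without CH replicate 1, 9 with median centring and 16 with hybridization control scaling.

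Markers of tissues near the vein that was bled were dim. Hepatocyte genes had 2 falls of 16, near the share over all genes, or 5 without CH replicate 4, and no rise, and a median of -0.72. Alb, albumin, had 162, 79.4, 109 and 63.3 in CH and 54.6, 27.4, 16.7 and 59.9 in REC, and the list's median level was 4.98 to 6.44 in CH and 4.80 to 5.008 in REC. Endothelial markers had 1 rise of 16, and the defining Cdh5 had means of 23.8 and 15.8. Of 13 adipocyte genes 3 rose, near the share over all genes, and 1 fell. Adipoq, the adipocyte hormone, had means of 22.2 and 14.99, while Fabp4, a fatty acid carrier that macrophages also make, rose by 3.08 and Scd1, a fatty acid desaturase, by 1.34. The fall was that of Cd36, a fatty acid receptor of erythroid cells, platelets and fat, with 3325, 4572, 2811 and 4959.9 in CH and 136, 66.4, 72.6 and 103 in REC: 5.16 ± 0.32 (limma adjusted p = 4.28e-08). Cd36 was lower in REC than in NX as well, by 1.43 (adjusted p = 0.0196 by limma). Among other genes that the study followed by qPCR, Ubfd1 had 359, 129, 123 and 122 in CH and 171, 149, 82.3 and 165 in REC and was not called (-0.23, limma adjusted p = 0.604), with another of its 4 probe sets called higher. Actb, the reference gene to which the study normalized its qPCR, fell by 1.74 ± 0.25, from 27068, 32128, 31484 and 45151 to 12676, 8749.5, 9197 and 9763. Its difference changed sign to 0.54 after quantile normalization and to 0.69 with hybridization control scaling. Pycr1 was not analysed here. Xist, made from the inactive X chromosome, had means of 76.5 and 68.3, and the Y-linked Eif2s3y of 2409 and 939, which fell by 1.32 and was 1.08 with hybridization control scaling.

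Between REC and NX far fewer genes were called than between REC and CH: 455 of 18194 genes (2.5%) were higher in REC than in NX and 325 (1.79%) were lower. The comparison shares its REC arrays with that against CH, so the list values are given side by side with no test of their relation. All groups also shared a single estimate of spread in the fit, to which the more variable CH arrays contributed. Plac8 was higher in REC than in NX by 1.29 without overlap of the arrays, yet was not called (limma adjusted p = 0.106). A gene not called here is thus not shown to be back at its NX level. For red cell membrane genes the medians were -2.60 for REC minus CH and -0.23 for REC minus NX, with no member higher and 7 lower. For heme genes they were -2.54 and -0.42, and for mitosis -1.07 and -0.28, with 6 mitosis genes lower than in NX. For B cell markers they were 2.44 and 0.03, for T cell markers 1.61 and 0.27, and for HIF targets 1.00 and -0.02. Lists whose REC level stood furthest from NX were NK and cytotoxic genes (1.33), complex I (1.21), mitochondrial ribosomal proteins (1.09), proteasome subunits (0.84) and complexes II to V (0.83), all in the direction of higher signal in REC.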

How the data were processed

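Whole blood RNA of 12 mice was measured on Affymetrix Mouse 430 2.0 arrays. Values are signal intensities on a linear scale as deposited by the authors, 1 per probe set and array, without detection calls, batches or scan dates. The authors' methods name GC-RMA, a log2 scale, for their own analysis. The deposited values are not on that scale. According to the methods, raw intensities were kept by the GeneChip Operating System. The sources used here do not say which program made the deposited values. Labels and methods also name different RNA amplification kits.

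Groups follow the array titles. From 45101 probe sets 34958 name 1 gene, 932 several and 9211 none, and 34754 were matched to current symbols by gene number. A pseudocount of 16 was added, log2 taken, and group means fitted to all 12 arrays with limma 3.58.1 (lmFit, eBayes, 9 residual degrees of freedom) in R 4.3.3. The fit was tested on simulated data. REC was compared with CH, and REC with NX for reference. Array measures were compared by exact two-sided permutation tests (scipy 1.17.1, Python 3.11.15). Standard deviations are over 4 mice. Standard errors are those of limma, from a spread pooled over all 12 arrays and drawn towards that of other probe sets. The 4 mice per group limit the precision.

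The 40 lists hold 1165 entries, of which 1042 were measured, by the brightest probe set naming that gene alone. The comparison, its members and the lists were chosen with earlier results of these data known. Named genes are the 15 largest called rises and falls without overlap of the CH and REC arrays, up to 5 called members of each list with the largest change, genes of the study's qPCR (not all are reported here), and list members that define a list. Further members named as examples were chosen after their values were seen. Motifs were searched in RefSeq promoter windows. Alternatives were 3 other scalings, pseudocounts of 1 and 64, leaving out dimmer probe sets, 8 arrays, array weights, a trend and robust prior, a test without moderation, a block for replicate number, each array left out in turn, stricter thresholds, and other choices of probe set per gene. Other probe sets of a gene can differ from the one given.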

Additional observations from a re-analysis of the deposited data

Results flagged for a closer look

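In 152 groups of 4 arrays, 9 held an array whose gap to the nearest of the others, as a share of the group's range, passed Dixon's 95% critical value, and chance flags about 1 in 20 groups. On the log2 scale of list medians, REC replicate 4 lay at 8.01 for heme and iron genes (others 8.26 to 8.30), CH replicate 4 at 9.06 for the CTLH complex (8.39 to 8.50), at 8.29 for ATF4 targets (7.90 to 7.91) and at 4.98 for hepatocyte genes (6.30 to 6.44). At single genes, REC replicate 1 lay at 6.34 for Tspan33 and at 7.98 for Tspo2, above the other REC arrays, and CH replicate 3 at 11.8 for Epb42, below the other CH arrays, and at 9.36 for Plac8 and 7.62 for Rfc2, above them (log2 signal).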

How the results depend on the processing

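Among the alternatives to the 6866 rises and 5688 falls, falls numbered 3355 with median centring, rises and falls 23977 and 623 with hybridization control scaling, 4527 and 2343 with a pseudocount of 64, 4276 and 2342 with 1 probe set per gene, 3378 and 2127 at an adjusted p under 0.001, and 1723 and 1413 at 4-fold or more, and falls 3475 without dimmer probe sets. Leaving out single arrays gave 6503 to 7529 rises and 4687 to 8828 falls, most falls without CH replicate 4. Same-numbered CH and REC arrays did not deviate together (correlations from -0.04 to 0.04, and from -0.06 to 0.08 between differently numbered arrays). Such correlations cannot exclude that same-numbered arrays were processed together. With the replicate number as a block 6894 rose and 6128 fell. The median of some lists changed sign. With quantile normalization it was -0.37 for autophagy, -0.13 for CTLH, 0.034 for antioxidant genes, 0.27 for complexes II to V, 0.35 for cytosolic ribosomal proteins and 0.064 for endothelium. With median centring it was 0.17 for erythroid factors, 0.0054 for ATF4 targets, 0.012 for neutrophils and 0.15 for endothelium. With hybridization control scaling it was 1.75 for erythroid factors, 1.53 for ATF4 targets, 1.69 for antioxidant genes, 2.02 for complexes II to V, 0.68 for cytosolic ribosomal proteins, 0.76 for mitosis, 1.97 for neutrophils, 0.49 for hepatocytes, 1.08 for endothelium and 1.49 for sex-linked genes. Of named genes Hba-a2 (0.18), Slc16a1 (0.16), Rps2 (0.086), Rpl38 (0.13), Rrm2 (0.40), Csnk1d (0.36), Eif2s3y (1.08), Ubfd1 (1.90) and Actb (0.69) changed sign under that scaling, Rpl38 (0.039) and Actb (0.54) with quantile normalization, and Ubfd1 with median centring (0.084). Leaving out single arrays moved Ubfd1 from -0.36 to 0.12, the latter without CH replicate 1. By construction hybridization control scaling raises REC against CH, since the controls were brighter in CH, and the cause of the other changes was not tested. Of 3451 values for 203 named genes under the alternatives 53 lost their call, in 36 genes, and 13 changed sign. Dim probe sets near the pseudocount understate changes, and without detection calls absence cannot be read from a low signal.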
